A study of Mus musculus with 15 samples.

Results

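The comparison described here was that of gonadal androgen deprivation by orchiectomy (removal of the testes) with sham operation, in the aortas of mice that all received aldosterone and a high salt intake (Aldo-salt). It used 10 of the 15 libraries of the series, chosen by their treatment labels as 5 control libraries (control 1 to 5) and 5 libraries from orchiectomized mice (orchiectomized 1 to 5), and was made across all genes. The 10-month-old male wild-type C57BL/6 mice were operated on, left for 2 weeks to recover, and then given aldosterone at 200 µg/kg/d from an osmotic minipump together with 0.9% NaCl and 0.2% KCl in the drinking water for 7 days. RNA was extracted from the cleaned aorta of each mouse and sequenced as a poly(A)-selected library, so that every library stood for 1 aorta of 1 mouse. The remaining 5 libraries came from orchiectomized mice on Aldo-salt that also carried a pellet of dihydrotestosterone (DHT) and entered the shared estimate of the spread and the filter on low counts. No group was without Aldo-salt, so each difference is that of orchiectomy under Aldo-salt. Orchiectomy removes all testicular hormones from the whole body, and the whole aorta holds smooth muscle, endothelium, adventitia and the fat and nerves attached to it. In such bulk RNA, fewer cells of a type and less RNA per cell cannot be told apart.

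Testosterone and DHT are the main androgens of male mice. Androgens restrain the thymus and B cell formation in male mice and act on fat, muscle and the vessel wall. The peripheral circadian clock, which runs in smooth muscle as in most tissues, is a loop in which BMAL1 (encoded by Arntl) and CLOCK switch on the Period, Cryptochrome and Rev-erb genes through E-boxes. The products of these genes repress BMAL1 and CLOCK in turn, and the Rev-erb proteins repress Arntl at ROR elements. DBP, TEF and HLF are output factors that act at D-boxes, where NFIL3 opposes them.

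The 10 libraries held 9574333 to 13816864 counts in genes, with 16689 to 17841 genes of 24982 given at least 1 count, so that 10 counts corresponded to 0.724 to 1.04 CPM (gene counts scaled to a common library size). The markers of the aortic wall were abundant in every library, with Acta2 (smooth muscle actin) at 4802 to 6671 CPM in control mice and 3684 to 6952 CPM in orchiectomized mice and Myh11 (smooth muscle myosin) at 4036 to 5961 and 2154 to 6019.8 CPM. The lowest Myh11 value was that of the library of orchiectomized mouse 2, which stood apart from the others of its group with correlations of log2 CPM of 0.884 to 0.910, against 0.961 to 0.983 between the other 4. This library carried transcripts of lung epithelium. The 14 lung markers summed to 7852 CPM in it, against 5.59 to 6.79 CPM in control mice and 9.12 to 45.2 CPM in the other orchiectomized mice, and Sftpc (surfactant protein C) was at 1979 CPM where all 5 control libraries were at 0. The library of orchiectomized mouse 3 carried transcripts of thymocytes, with Rag1 (the recombinase of immature lymphocytes) at 53.5 CPM and Dntt at 18.8 CPM against control ranges of 0 to 1.63 and 0 to 0.708 CPM. The summed thymocyte markers were 149 CPM in that library, 4.59 to 9.49 CPM in control mice and 8.40 to 26.2 CPM in the other orchiectomized mice. Lung markers were above the controls at low levels in other orchiectomized libraries too. Napsa, an aspartic protease of alveolar cells, was at 1.45 to 1.92 CPM in control mice and at 2.26 to 6.60 CPM in orchiectomized 1, 4 and 5, and of 5 lung genes tested without orchiectomized 2 and 3, 3 were higher (median log2 fold change 1.34). None of the 3 tested thymocyte genes was called without the pair (median 1.11). Lung and thymus lie beside the thoracic aorta, and whether they were collected with it was not tested. Results are therefore given with all libraries and again without orchiectomized mice 2 and 3.

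**Figure D1:**
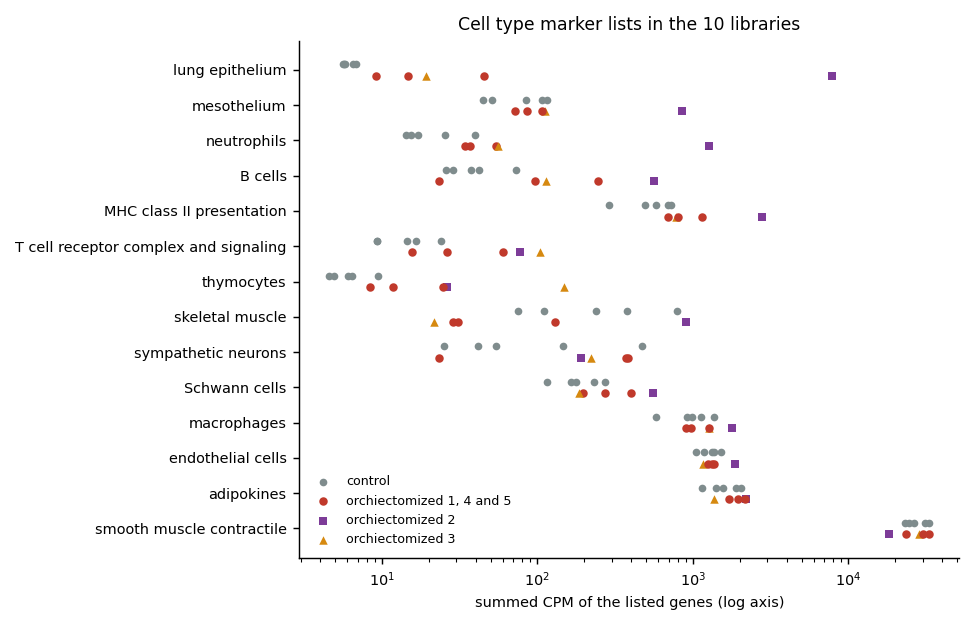
Summed CPM of the genes of 14 marker lists (rows) in each library, on a log axis, with control libraries in gray above and orchiectomized libraries below. The square of orchiectomized 2 reaches 7852 CPM for lung epithelium and the triangle of orchiectomized 3 reaches 149 CPM for thymocytes, while the smooth muscle contractile genes lie between 18357 and 33174 CPM in all 10 libraries.

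The difference between the groups was spread over few genes. Of 14121 genes tested with all libraries, 294 were higher (2.08%) and 160 lower (1.13%) in orchiectomized mice at an unadjusted *P* of 0.01 by the quasi-likelihood test of edgeR, which is the meaning of a call below, while the *P* values printed with a gene are adjusted over all genes. With the 10 libraries of this comparison alone 140 were higher and 157 lower. With DESeq2 the split was 304 higher and 316 lower, and with limma voom and quality weights 234 higher and 227 lower. None passed a Benjamini-Hochberg adjusted *P* of 0.05 with edgeR (smallest 0.0960), while 1692 had an unadjusted *P* below 0.05, DESeq2 gave 74 higher and 57 lower genes at the adjusted threshold and limma voom 1 higher gene, Dbp. Without orchiectomized 2 and 3, 80 of 14309 genes were higher (0.559%) and 69 lower (0.482%). Uniform *P* values would pass the threshold of 0.01 in 1% of genes. The calls with edgeR were 3.2% of genes with all libraries and 1.04% without the pair, the latter near that share. Below an unadjusted *P* of 0.05, where uniform values give 5%, were 11.98% and 5.77%. Without the pair DESeq2 gave 122 higher and 135 lower genes, and limma voom 260 higher and 300 lower. The edgeR fit without the pair gave 826 genes with an unadjusted *P* below 0.05, no gene at the adjusted threshold (smallest 0.291), 9 higher and 5 lower genes there with DESeq2, and Dbp alone with limma voom. The median log2 fold change of all genes was 0.037 with all libraries and 0.0074 without the pair. Counts of called members of a gene list below are to be read beside the shares of all genes given here.

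Orchiectomized 2 held the highest value of the 10 libraries for 223 of the 294 higher genes (75.9%), and leaving out this library alone left 120 higher genes. The higher count was also more than 1.5 times lower without control 1 (174), control 2 (195) or control 3 (178). The lower genes were spread more widely, with the lowest value in orchiectomized 2 for 71 genes (44.4%), in orchiectomized 3 for 58 (36.2%) and in orchiectomized 1 for 22. Their count went from 160 to 78 without control 1, to 82 without control 3 and to 446 without control 4. Of the 294 higher genes, 66 also had a *P* below 0.01 without orchiectomized 2 and 3, and 291 kept a positive log2 fold change, whose median went from 1.25 to 0.68. Of the 160 lower genes, 32 also passed without the pair, and all 160 kept a negative log2 fold change, with a median of -0.85 against -0.76. No gene that passed in both fits changed direction. Both fits used the same 5 control libraries and orchiectomized 1, 4 and 5, so a kept direction is not independent support. In 140 genes (0.991%) all 5 orchiectomized libraries lay above all 5 control libraries, and in 73 genes (0.517%) they lay below.

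**Figure D2:**
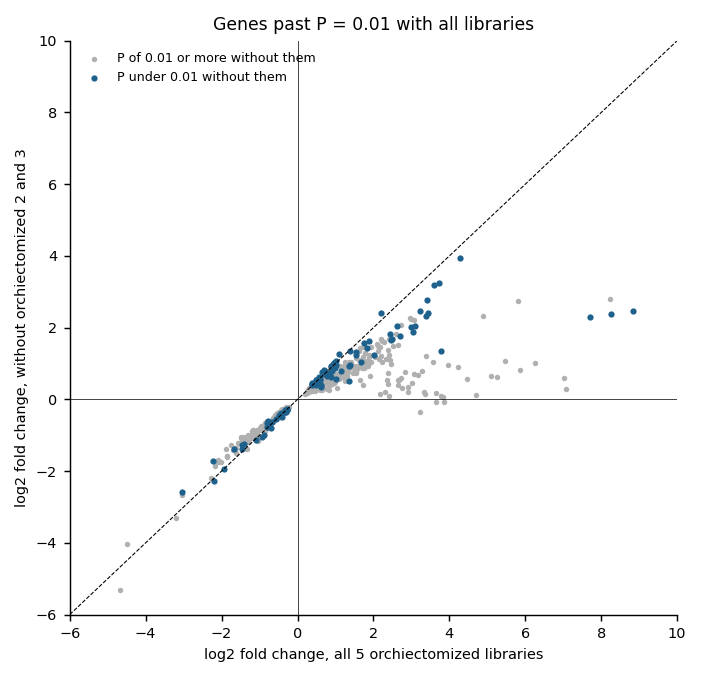
Each point is a gene with *P* below 0.01 in the comparison of all 5 orchiectomized libraries with the 5 control libraries, placed by its log2 fold change in that comparison (x axis) and in the comparison without orchiectomized 2 and 3 (y axis), with the dashed line marking equality. The lower genes lie close to the line, whereas many higher genes fall below it, the median going from 1.25 to 0.68, and the blue points are the 66 higher and 32 lower genes that passed in both.

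Some of the genes with the smallest *P* values in both fits belonged to a few groups, and the others did not share a list. The 12 higher genes were the clock genes Dbp, Tef, Per3 and Per1, the neutrophil granule genes S100a9, S100a8 and Ngp, the chromatin and replication genes Hmgb2 and Mcm3, and Mthfd1l, Bmp3 and Pik3ip1. The 12 lower genes were the clock gene Arntl, the lipid genes Pnpla3, Scd1, Sc5d and Hmgcs1, and Hephl1, Lrrc39, Slc22a3, Med24, Dot1l, Cnnm2 and Ctcfl. Their *P* below 0.01 with edgeR with and without the pair is how they were chosen. All 24 also had a *P* below 0.01 whichever single library was left out and with DESeq2 and limma voom, with and without the pair. In 23 of them the groups did not overlap, the exception being Scd1.

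**Figure D3:**
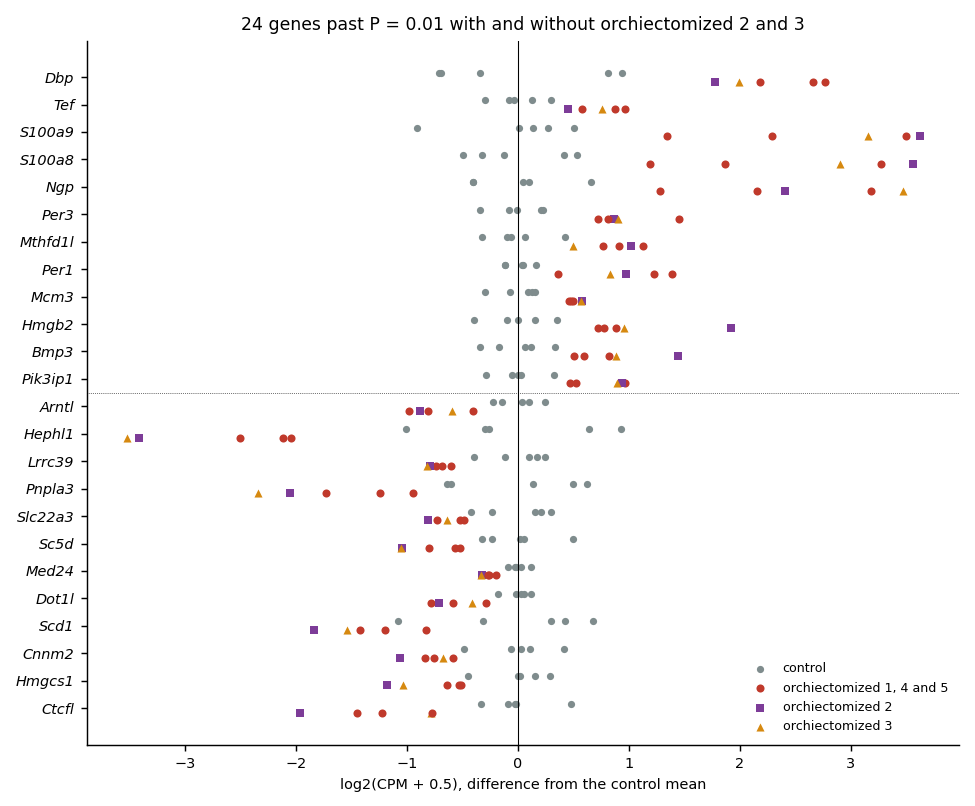
Log2(CPM + 0.5) of each of the 24 genes in every library, as the difference from the mean of the 5 control libraries (x axis), with control libraries in gray and orchiectomized libraries in color. Above the dotted line every orchiectomized library lies to the right of all controls, and below it to the left, except for Scd1, where control 4 falls among the orchiectomized libraries.

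The clock genes gave the smallest *P* values of the comparison. The called output and repressor genes were higher after orchiectomy except Cry1, and Arntl and Nfil3 were lower. For genes of small *P* whose promoter window held a clock motif, the sequence with the motif is shown. The sequences were taken from the promoter windows of RefSeq (250 bases before to 50 after a start, build GRCm38.p6, which is mm10) and are written 5′ to 3′ on the strand of the gene. Capitals mark an E-box (CACGTG), a D-box (TTANGTAA) or a ROR element (TAGGTCA or its reverse complement TGACCTA).
Per1, chr11:69098699-69098948, plus strand, E-box 166 bases before the start: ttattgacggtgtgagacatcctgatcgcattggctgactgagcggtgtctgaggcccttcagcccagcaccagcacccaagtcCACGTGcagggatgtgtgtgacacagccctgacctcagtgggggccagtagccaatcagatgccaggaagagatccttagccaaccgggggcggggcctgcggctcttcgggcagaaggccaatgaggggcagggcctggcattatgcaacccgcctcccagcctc
Tef, chr15:81802423-81802672, plus strand, E-box 127 bases before the start: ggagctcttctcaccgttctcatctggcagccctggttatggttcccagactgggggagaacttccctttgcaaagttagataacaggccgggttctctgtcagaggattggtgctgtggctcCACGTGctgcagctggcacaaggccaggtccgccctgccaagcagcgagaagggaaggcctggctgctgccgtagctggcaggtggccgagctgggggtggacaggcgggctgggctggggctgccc
Per3, chr4:151044666-151044915, minus strand, D-boxes 205 and 158 bases before the start: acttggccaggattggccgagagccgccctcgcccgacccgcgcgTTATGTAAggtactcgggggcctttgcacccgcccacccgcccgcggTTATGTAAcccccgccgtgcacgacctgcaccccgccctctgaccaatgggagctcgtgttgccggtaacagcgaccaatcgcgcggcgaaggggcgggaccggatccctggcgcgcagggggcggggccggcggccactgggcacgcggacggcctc
Nfil3, chr13:52981040-52981289, minus strand, ROR element 12 bases before the start: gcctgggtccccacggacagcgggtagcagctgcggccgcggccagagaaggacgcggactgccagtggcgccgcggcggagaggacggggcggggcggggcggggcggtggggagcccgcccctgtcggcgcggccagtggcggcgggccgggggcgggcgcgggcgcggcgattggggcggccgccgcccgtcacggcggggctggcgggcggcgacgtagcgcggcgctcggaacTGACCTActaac
Arntl, chr7:113207518-113207547, plus strand, ROR element from base 31 after the start: cgacatttagggaaggcagaaagTAGGTCA
Across 14 windows of 12 repressor and output genes, 6 windows of 5 genes (Bhlhe41, Ciart, Cry1, Per1 and Tef) held an E-box, which 7.15% of all 32851 windows held. A D-box was found in the window of Per3 alone, against 2.32% of all windows, and no ROR element was found. Across 8 windows of 5 genes of the activator list, which includes Nfil3, 2 held a ROR element (Arntl and Nfil3), against 2.61% of all windows, and neither an E-box nor a D-box was found. These matches describe the letters of the windows only.

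Dbp (D-box binding protein, chr7:45705100-45710203 on mm10), an output gene driven by BMAL1 and CLOCK, was at 14.1, 6.09, 4.59, 15.5 and 4.65 CPM in control mice 1 to 5 and at 56.2, 28.1, 32.7, 52.3 and 37.3 CPM in orchiectomized mice 1 to 5. The lowest orchiectomized library lay above the highest control library, and orchiectomized 2 and 3 were the lowest of their group (log2 fold change 2.19, SE 0.35, adjusted *P* = 0.0960). Without this pair the log2 fold change was 2.40, SE 0.37, adjusted *P* = 0.291, called. Tef, a related output factor (chr15:81802673-81826863), was at 113, 74.6, 86.6, 100 and 89.3 CPM in control mice and at 168, 125, 155, 179 and 137 CPM in orchiectomized mice. Every orchiectomized library again lay above the controls (log2 fold change 0.72, SE 0.12, adjusted *P* = 0.0960, and without the pair 0.79, SE 0.14, adjusted *P* = 0.409, called). Hlf, the third member of this family, did not pass the threshold, with 19.3 to 35.8 CPM in control mice and 31.97 to 47.7 CPM in orchiectomized mice (adjusted *P* = 0.346).

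Of the Period repressors, Per1 (chr11:69095108-69109965) was at 23.1, 23.04, 28.1, 25.7 and 25.9 CPM in control mice and at 32.4, 49.7, 44.9, 59.5 and 66.5 CPM in orchiectomized mice. The control values were tight, with 25.2 ± 2.12 CPM (SD, n = 5) against 50.6 ± 13.2 CPM (SD, n = 5), and orchiectomized 1 came nearest to them (log2 fold change 1.01, SE 0.20, adjusted *P* = 0.131, and without the pair 1.06, SE 0.23, adjusted *P* = 0.619, called). Per1 is also a direct target of glucocorticoids and is listed here with the corticosteroid targets as well. Per3 (chr4:150997018-151044707), which carries the D-boxes shown above, was at 12.9, 8.62, 10.4, 10.98 and 12.8 CPM in control mice and at 18.5, 20.4, 20.98, 31.1 and 19.8 CPM in orchiectomized mice. Orchiectomized 4 was well above the other 4, and the lowest orchiectomized library stayed above the highest control (log2 fold change 0.99, SE 0.19, adjusted *P* = 0.131, and without the pair 1.05, SE 0.23, adjusted *P* = 0.619, called). Per2 was at 13.9 to 27.4 and 20.7 to 35.5 CPM, overlapping between groups, and missed the threshold (log2 fold change 0.49, adjusted *P* = 0.374).

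Nr1d2 (Rev-erb beta, the repressor of Arntl acting with Rev-erb alpha) was at 55.5, 37.7, 33.9, 61.5 and 49.6 CPM in control mice and at 85.4, 66.02, 98.96, 108 and 82.9 CPM in orchiectomized mice. The groups did not overlap (log2 fold change 0.89, SE 0.20, adjusted *P* = 0.215, and without the pair 0.94, SE 0.22, adjusted *P* = 0.778, called). Nr1d1 (Rev-erb alpha) was at 111, 67.1, 69.2, 116 and 88.8 CPM and at 166, 104, 142, 171 and 124 CPM, with control 4 and control 1 above orchiectomized 2 (log2 fold change 0.64, SE 0.18, adjusted *P* = 0.280), and its call was lost without control 2, control 3, orchiectomized 1 or orchiectomized 4. Bhlhe41, a repressor of the loop, was higher at adjusted *P* = 0.297 with overlapping groups (15.6 to 27.5 and 21.7 to 35.6 CPM) and lost its call without any of 7 of the 10 libraries. Cry1 was the only lower gene called among the repressors. It was at 18.9, 22.1, 22.5, 12.8 and 20.6 CPM in control mice and at 9.69, 14.7, 9.35, 13.9 and 14.0002 CPM in orchiectomized mice, lower in the latter with control 4 among them (log2 fold change -0.65, SE 0.19, adjusted *P* = 0.280, and without the pair -0.63, SE 0.21, adjusted *P* = 0.815, not called, with the call also lost without control 2).

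Arntl (BMAL1, chr7:113178471-113314126), the partner of CLOCK, was at 42.7, 59.2, 45.05, 53.7 and 51.2 CPM in control mice and at 24.97, 26.9, 32.96, 28.3 and 37.6 CPM in orchiectomized mice. Every orchiectomized library lay below every control (log2 fold change -0.74, SE 0.12, adjusted *P* = 0.0960), and the value was the same to 2 decimals without the pair (-0.74, SE 0.15, adjusted *P* = 0.619, called). Nfil3, which opposes DBP at D-boxes, was at 54.2, 94.03, 55.8, 49.4 and 47.6 CPM in control mice, where control 2 stood far above the rest, and at 25.1, 39.8, 40.3, 35.5 and 44.5 CPM in orchiectomized mice (log2 fold change -0.70, SE 0.19, adjusted *P* = 0.261, and without the pair -0.79, SE 0.24, adjusted *P* = 0.815, called). Clock was at 105 to 139 CPM in control mice and 67.7 to 135 CPM in orchiectomized mice (adjusted *P* = 0.424) and Npas2, which can stand in for it, at 37.5 to 58.2 and 25.7 to 43.4 CPM (adjusted *P* = 0.342). Rora, an activator at ROR elements, had an adjusted *P* of 0.482. In all, 2 of 6 genes of the activator list were lower and none higher (median log2 fold change -0.51, and without the pair 2 of 6 and -0.59). The 2 were Arntl and Nfil3, and Nfil3 stands on this list although its product opposes DBP at D-boxes. Of 14 repressor and output genes 7 were higher and 1 lower (median 0.60, and without the pair 7 higher, none lower and 0.69), where 2.08% and 1.13% of all genes were higher and lower. Without the pair 0.559% and 0.482% of all genes were higher and lower. Cry2, Ciart, Bhlhe40 and Usp2 were the other members, with log2 fold changes of 0.047, 0.76, -0.58 and 0.51 and adjusted *P* values from 0.373 to 0.866. The labels give a light and dark cycle but no hour of harvest.

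**Figure D4:**
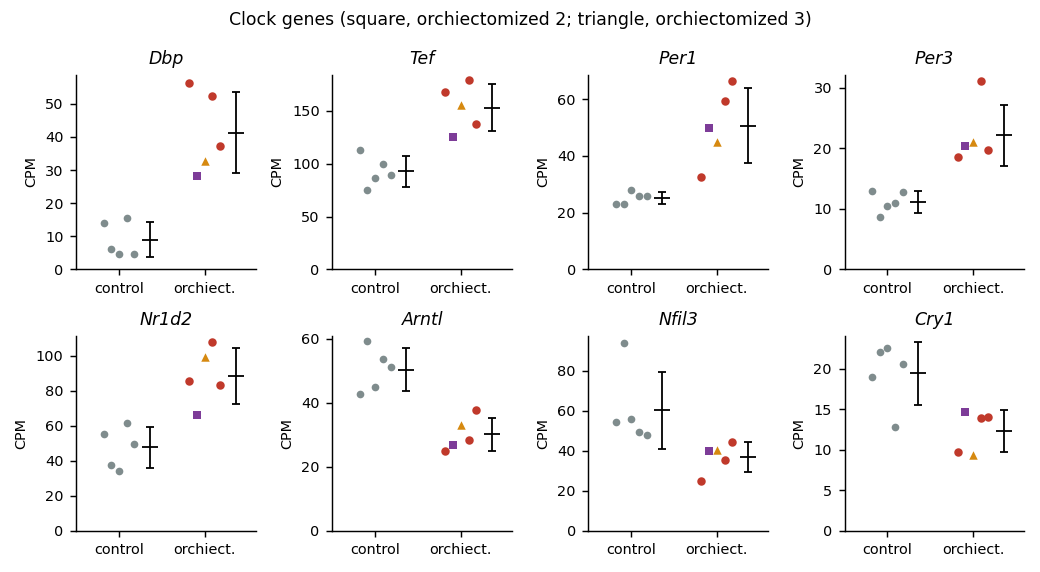
CPM of 8 clock genes (panels, linear axes from 0) in the 5 control libraries (gray) and the 5 orchiectomized libraries (red, with a square for orchiectomized 2 and a triangle for orchiectomized 3), and beside each group its mean with an error bar of 1 SD. Dbp goes from 8.99 ± 5.37 to 41.3 ± 12.3 CPM and Arntl from 50.4 ± 6.66 to 30.2 ± 5.10 CPM, and only for Cry1 among these 8 do the groups overlap.

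Several genes of neutrophils were higher after orchiectomy at low levels. S100a9 (chr3:90692630-90695721), which with S100a8 forms calprotectin, the main protein of neutrophil cytoplasm, was at 1.09, 0.0937, 0.626, 0.850 and 0.730 CPM in control mice and at 12.2, 13.3, 9.44, 2.34 and 4.97 CPM in orchiectomized mice. S100a8 (chr3:90669071-90670034), its partner, was at 0.181, 0.281, 0.104, 0.637 and 0.730 CPM and at 7.75, 9.56, 5.86, 1.44 and 2.60 CPM. In both genes orchiectomized 2, 1 and 3 were highest and orchiectomized 4 lowest, still above every control (log2 fold change 3.60, SE 0.62, adjusted *P* = 0.0960 for S100a9, and log2 fold change 3.74, SE 0.65, adjusted *P* = 0.0960 for S100a8). Ngp (neutrophilic granule protein, chr9:110419808-110423012) was at 0.543, 0, 0.209, 0 and 0.183 CPM and at 5.49, 3.01, 6.82, 1.10 and 2.44 CPM, with orchiectomized 3 and 1 the highest (log2 fold change 4.29, SE 0.79, adjusted *P* = 0.122). These levels rested on 0 to 12 counts per control library and 16 to 150 per orchiectomized library. Without the pair the log2 fold changes were 3.20, 3.24 and 3.94, with adjusted *P* values of 0.619, 0.619 and 0.619.

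Of the 9 tested neutrophil genes 5 were higher and none lower with all libraries (median 3.60), and 4 were higher without the pair (median 0.95). Of all genes, 2.08% and 0.559% were higher in these fits. A gene could pass the count filter through 1 group alone, and Ngp and S100a8 had at most 6 and 9 counts in any control library. Genes low in every group were dropped, so the filter can raise the called share and the median of this list and other lists of low genes. Ltf (lactoferrin), a secondary granule gene that airway glands also make, was at 1116 CPM in orchiectomized 2 but at 1.87 to 4.20 CPM in orchiectomized 1, 4 and 5 against 0.0708 to 1.12 CPM in control mice (log2 fold change 8.83, and without the pair 2.46, SE 0.60, adjusted *P* = 0.802, called). Chil3, the fifth gene, rested on orchiectomized 2 with 51.2 CPM and had an adjusted *P* of 0.815 without the pair, its call being lost without orchiectomized 2. Camp, Retnlg and Mpo were too low to be tested, and in each of them all 5 orchiectomized libraries lay above all controls, with 0.412 to 3.01 against 0 to 0.272 CPM for Camp, 0.344 to 4.60 against 0.0906 to 0.187 CPM for Retnlg and 0.137 to 0.699 against 0 to 0.104 CPM for Mpo. They were picked after their values were seen, from 18 listed neutrophil genes of which 9 were tested. The share of untested genes without overlap was not counted, so they add no support. Csf3r (the G-CSF receptor) and Mmp9 were not called (adjusted *P* = 0.407 and 0.905), and Ly6g was at 0.0687 to 0.431 CPM in orchiectomized mice and 0 to 0.0906 CPM in control mice.

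Of 13 tested B cell genes, 10 were higher and none lower with all libraries (median log2 fold change 2.98), and 5 were higher without the pair (median 2.07). Of all genes, 2.08% were higher with all libraries and 0.559% without the pair. Cd79a, a chain of the B cell receptor, was at 1.18, 1.498, 2.29, 1.56 and 1.64 CPM in control mice and at 2.26, 53.5, 9.53, 19.7 and 3.83 CPM in orchiectomized mice. Orchiectomized 2, 4 and 3 were far above the controls, whereas orchiectomized 1 lay just inside their range (log2 fold change 3.44, SE 0.74, adjusted *P* = 0.188, and without the pair 2.40, SE 0.63, adjusted *P* = 0.815, called). Ms4a1 (CD20) followed the same order, with 0.815, 0.281, 0.938, 0.850 and 2.01 CPM and 0.754, 22.5, 10.4, 16.8 and 2.36 CPM (log2 fold change 3.42, SE 0.76, adjusted *P* = 0.231, and without the pair 2.77, SE 0.79, adjusted *P* = 0.815, called). Cd79b and Mzb1, the latter of antibody-secreting cells, also passed in both fits (adjusted *P* = 0.188 and 0.244, and without the pair 0.802 and 0.815). Pax5, the B lineage factor, had an adjusted *P* of 0.244 with all libraries and 0.815 without the pair, where it was not called. The summed B cell markers were at 25.99, 28.8, 72.4, 41.9 and 37.4 CPM in control mice and at 23.3, 564, 113, 246 and 97.2 CPM in orchiectomized mice, so that orchiectomized 1 was below every control and orchiectomized 2, which carried lung transcripts, was the highest. Ccl21a, the stromal chemokine of lymph nodes, was listed at 0 in all 10 libraries and Glycam1 and Madcam1 were at most 1.10 CPM. The part of lymph node tissue attached to the aorta in these values was not tested.

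Of 11 tested genes of the T cell receptor complex and its signaling, 8 were higher and none lower (median 1.74), and without the pair 2 were higher (median 1.10). The shares of all genes that were higher were 2.08% and 0.559%. Cd3g, an invariant chain of the receptor, was at 0.634, 0.281, 1.04, 0.992 and 0.730 CPM in control mice and at 1.08, 6.81, 5.42, 4.399 and 2.36 CPM in orchiectomized mice. All 5 orchiectomized libraries lay above the controls, with orchiectomized 1 the lowest (log2 fold change 2.43, SE 0.51, adjusted *P* = 0.176, and without the pair 1.82, SE 0.52, adjusted *P* = 0.815, called). Cd247, which encodes the zeta chain, was at 1.36, 1.59, 1.88, 1.98 and 1.55 CPM and at 2.26, 5.49, 5.42, 5.43 and 2.69 CPM, also without overlap (log2 fold change 1.34, SE 0.33, adjusted *P* = 0.244, and without the pair adjusted *P* = 0.815, not called). Cd8a, the coreceptor of cytotoxic T cells that immature thymocytes also carry, was at 0.634, 0.375, 0.521, 1.42 and 0.365 CPM and at 0.538, 4.16, 16.4, 4.67 and 2.28 CPM. Its value was by far the highest in orchiectomized 3, the library with Rag1 at 53.5 CPM (log2 fold change 3.03, SE 0.71, adjusted *P* = 0.244, and without the pair 1.88, SE 0.61, adjusted *P* = 0.815, called). Lck, Lat, Cd2 and Cd3e were higher with all libraries (adjusted *P* = 0.244, 0.244, 0.297 and 0.288) and not without the pair (adjusted *P* = 0.815, 0.815, 0.815 and 0.815), and the calls of Cd2 and Cd3e were lost without any of 5 and 6 of the 10 libraries. Cd4 was not called in either (0.362 to 6.80 and 1.40 to 11.1 CPM, adjusted *P* = 0.587). Tcf7, a T lineage factor that thymocytes express strongly, was at 2.26 to 3.44 CPM in control mice and at 2.69, 15.04, 40.5, 12.6 and 3.83 CPM in orchiectomized mice 1 to 5. The thymocyte gene Rag1 was at 0.754 to 3.37 CPM in orchiectomized 1, 4 and 5 and at 0.0906, 0, 0, 1.63 and 0.0913 CPM in control mice, so low levels were present beyond orchiectomized 3 (without the pair, log2 fold change 2.32, adjusted *P* = 0.815). The part of thymus RNA in the T cell values was not tested.

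Pdcd1, the gene of the checkpoint receptor PD-1, was too low for the fit, with 2 to 4 counts per control library and 3, 19, 11, 19 and 1 counts in orchiectomized mice 1 to 5. The difference in mean log2(CPM + 0.5) was 0.71, with an exact two-sided permutation *P* of 0.127 where the smallest that 5 against 5 allow is 0.00794. Without orchiectomized 2 and 3 the difference was 0.35 (exact permutation *P* = 0.464), and without orchiectomized 5 it was 0.98 (exact permutation *P* = 0.0159). Cd274 (PD-L1, its ligand) was at 31.4, 22.5, 35.5, 15.01 and 34.1 CPM in control mice and at 22.6, 18.5, 19.1, 24.3 and 17.99 CPM in orchiectomized mice, with overlapping groups (log2 fold change -0.43, SE 0.22, adjusted *P* = 0.446, and without the pair -0.36, SE 0.27, adjusted *P* = 0.832, not called). Of 7 tested checkpoint genes only Btla, which B cells express most, was called (0.562 to 1.49 CPM in control mice, 0.538, 10.8, 3.06, 4.19 and 1.14 CPM in orchiectomized mice, adjusted *P* = 0.280, and without the pair 0.815, not called, and its call was also lost without control 2 or orchiectomized 2). Ctla4, Tigit and Pdcd1lg2 were at or below 0.796 CPM in all 10 libraries.

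Of 10 tested genes of MHC class II presentation, 6 were higher and none lower with all libraries (median 1.16), and without the pair only H2-DMb2 was (median 0.67). The shares of all genes that were higher were 2.08% and 0.559%. Cd74, the invariant chain, was at 102, 183, 223, 270.5 and 248.9 CPM in control mice and at 266, 1060.2, 300.5, 451 and 299 CPM in orchiectomized mice. Orchiectomized 2 stood far above the others, and orchiectomized 1 lay inside the control range (log2 fold change 1.21, SE 0.38, adjusted *P* = 0.291, and without the pair 0.72, SE 0.30, adjusted *P* = 0.815, not called), and the call was lost without control 1, 2 or 3 or orchiectomized 2 or 4. H2-DMb2, a peptide-loading chain, was at 0.543, 0.937, 1.56, 1.77 and 0.913 CPM and at 1.83, 15.3, 5.51, 7.22 and 1.87 CPM without overlap (log2 fold change 2.45, SE 0.56, adjusted *P* = 0.239, and without the pair 1.66, SE 0.51, adjusted *P* = 0.815, called). Of 19 tested macrophage markers, 2 were higher and none lower (median 0.12, and without the pair 1 higher, 0.033), and Adgre1 (F4/80), Cd68, Csf1r and C1qa had adjusted *P* values of 0.769, 0.786, 0.644 and 0.928. The genes called were Ly6c2, a marker of inflammatory monocytes (0.181, 0.468, 2.19, 0.496 and 0.821 CPM in control mice, 1.61, 13.9, 1.40, 4.74 and 3.83 CPM in orchiectomized mice, adjusted *P* = 0.244, and without the pair 0.815, called), and their chemokine receptor Ccr2 (7.34 to 14.1 and 9.37 to 38.5 CPM, adjusted *P* = 0.301, and without the pair 0.815, not called, its call also being lost without any of 7 of the 10 libraries). Ccl5, a chemokine of T and natural killer cells, was at 0.996, 1.03, 1.88, 1.27 and 1.55 CPM and at 2.48, 11.4, 0.874, 7.01 and 3.01 CPM (log2 fold change 1.88, SE 0.52, adjusted *P* = 0.264, and without the pair 1.63, SE 0.37, adjusted *P* = 0.764, called), although the call was lost without orchiectomized 2 alone. Ccl22 was the other called chemokine of 15 tested, and its adjusted *P* was 0.815 without the pair, not called, the call also being lost without orchiectomized 2 or control 1, 3, 4 or 5. None of 15 interferon-stimulated genes and none of 15 complement genes was called in either fit (medians 0.074 and 0.17, and without the pair -0.28 and 0.011), the smallest adjusted *P* values being 0.456 for Gbp2 and 0.357 for C1ra.

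Most tested genes of fatty acid synthesis were lower after orchiectomy with all libraries. Of 18 tested, 12 were lower and none higher with all libraries (median log2 fold change -1.25), and 16 of 18 had a negative log2 fold change in both fits. Without the pair 2 were lower, Scd1 and Pnpla3 (median -0.93). Lower genes made up 1.13% of all genes with all libraries and 0.482% without the pair. Scd1 (stearoyl-CoA desaturase, chr19:44394450-44407709), which makes monounsaturated fatty acids, was at 10823, 6469, 12863, 3800.4 and 9912 CPM in control mice and at 2994, 2249.8, 2764, 4542 and 3510.5 CPM in orchiectomized mice. Only control 4 fell inside the orchiectomized range (log2 fold change -1.45, SE 0.33, adjusted *P* = 0.239, and without the pair -1.26, SE 0.40, adjusted *P* = 0.815, called). Acaca (acetyl-CoA carboxylase), the rate-limiting enzyme of the pathway, was at 1377, 852, 2114, 495 and 1148 CPM and at 399, 243, 317, 636 and 568 CPM, with control 4 below orchiectomized 4 and 5 (log2 fold change -1.47, SE 0.41, adjusted *P* = 0.276, and without the pair -1.17, SE 0.47, adjusted *P* = 0.815, not called, and without control 3 alone it was also lost). Fasn (fatty acid synthase) was at 8480.1, 5174, 11149.7, 2611 and 5885 CPM and at 2298, 1339, 1552, 3876 and 3474 CPM, in the same order (log2 fold change -1.41, SE 0.44, adjusted *P* = 0.291, and without the pair -1.06, SE 0.49, adjusted *P* = 0.815, not called, with the call also lost without control 1 or 3 or orchiectomized 1, 2 or 3). Mlxipl (ChREBP, the carbohydrate-responsive factor that drives these genes) was at 157, 87.7, 269, 66.1 and 134 CPM and at 39.6, 29.3, 31.03, 65.3 and 55.3 CPM without overlap (log2 fold change -1.69, SE 0.42, adjusted *P* = 0.244, and without the pair -1.42, SE 0.50, adjusted *P* = 0.815, not called). Pnpla3, a lipid droplet hydrolase that ChREBP and SREBP-1c induce (chr15:84167776-84189521), was at 222, 104, 242, 101 and 173 CPM and at 47.3, 37.5, 30.8, 81.5 and 66.4 CPM, also without overlap (log2 fold change -1.68, SE 0.33, adjusted *P* = 0.131, and without the pair -1.38, SE 0.35, adjusted *P* = 0.815, called). Srebf1, the gene of SREBP-1, had a smaller difference (185 to 308 CPM in control mice, 144 to 205 CPM in orchiectomized mice, adjusted *P* = 0.308, and without the pair 0.815, its call being lost without any of 8 of the 10 libraries), and Fads1 and Fads2, the desaturases of polyunsaturated fatty acids, did not pass (log2 fold change 0.0076 and 0.022).

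These genes are highly expressed in fat, and the summed lists of brown fat and of triglyceride storage ranked the 5 control libraries in the same order as they did, whereas Adipoq and the adipokine list did not. Summed fatty acid synthesis genes were at 29001, 17572, 38389, 10112 and 22736 CPM in control mice 1 to 5 and at 9206, 6170.4, 6762, 13071 and 11675 CPM in orchiectomized mice 1 to 5, and the brown fat list was at 5661, 2758, 5833, 1631 and 4056 CPM and at 3017, 1892, 1788, 2851 and 2377 CPM, with control 4 the lowest control in both. The adipocyte hormone Adipoq was at 401, 304, 469, 207 and 522 CPM and at 312, 364, 262, 500.2 and 338 CPM (log2 fold change -0.10, adjusted *P* = 0.900), Plin1, the coat protein of adipocyte droplets, had a log2 fold change of -0.85 (adjusted *P* = 0.367) and Ucp1, the uncoupling protein of brown fat, of -0.98 (adjusted *P* = 0.381). Of 12 brown fat genes 1 was lower (Elovl3, which is also on the fatty acid list and lost its call without any of 6 of the 10 libraries), of 7 adipokines 1 was lower, and of 17 genes of triglyceride storage and lipolysis 2 were lower (Lpin1, adjusted *P* = 0.269, and Agpat2, adjusted *P* = 0.301, lost without control 1 or 3 or orchiectomized 2, 3 or 5), with medians of -0.43, -0.014 and -0.66. Without the pair the only gene called on these 3 lists was Plin4 (adjusted *P* = 0.815). The called adipokine was Lep (leptin), at 10.6, 11.8, 12.3, 9.56 and 32.9 CPM in control mice and at 2.80, 3.81, 2.01, 6.87 and 5.78 CPM in orchiectomized mice without overlap, control 5 standing far above the rest (log2 fold change -1.85, SE 0.52, adjusted *P* = 0.268, and without the pair -1.57, SE 0.61, adjusted *P* = 0.815, not called, the call also being lost without control 5). The part of attached fat in these differences was not tested.

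On the list of cholesterol synthesis and uptake, 6 of 24 tested genes were lower and none higher (median -0.50), 23 had a negative log2 fold change, and without the pair 2 were lower, Hmgcs1 and Sc5d (median -0.36). The shares of all genes that were lower were 1.13% with all libraries and 0.482% without the pair. Hmgcs1 (HMG-CoA synthase, chr13:119690351-119708260), which makes the precursor of mevalonate, was at 304, 278, 335, 200.2 and 274 CPM in control mice and at 176, 121, 134, 189.7 and 192 CPM in orchiectomized mice. The groups did not overlap, and orchiectomized 2 and 3 were the lowest (log2 fold change -0.78, SE 0.18, adjusted *P* = 0.241, and without the pair -0.59, SE 0.19, adjusted *P* = 0.815, called). Its promoter is shown because it was the only 1 of 20 windows of this list to hold the sterol element, TCACNCCAC, which 1.24% of all windows held. Capitals mark the match, 137 bases before the start.
Hmgcs1, chr13:119690101-119690350, plus strand: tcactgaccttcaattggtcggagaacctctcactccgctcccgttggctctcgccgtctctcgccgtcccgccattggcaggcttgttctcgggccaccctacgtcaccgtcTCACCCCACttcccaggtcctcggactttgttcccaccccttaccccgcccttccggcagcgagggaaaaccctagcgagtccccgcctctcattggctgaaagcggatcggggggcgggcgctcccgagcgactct
On the fatty acid list only Mlxipl held this element, in 1 of 18 windows. Sc5d (sterol C5 desaturase, chr9:42251592-42264300) was at 76.1, 61.999, 103, 58.3 and 73.8 CPM and at 41.8, 35.1, 35.1, 50.7 and 49.2 CPM without overlap (log2 fold change -0.82, SE 0.17, adjusted *P* = 0.176, and without the pair -0.67, SE 0.19, adjusted *P* = 0.815, called). Lss (lanosterol synthase) did not overlap either (41.8 to 73.9 CPM in control mice, 20.3 to 40.4 CPM in orchiectomized mice, adjusted *P* = 0.244, and without the pair 0.815). Insig1, Nsdhl and Cyp51 were the other lower genes (adjusted *P* = 0.285, 0.285 and 0.285), each of which was lost without orchiectomized 3 and without at least 1 control library. Srebf2, the gene of the sterol-sensing factor SREBP-2, was not called (log2 fold change -0.12).

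**Figure D5:**
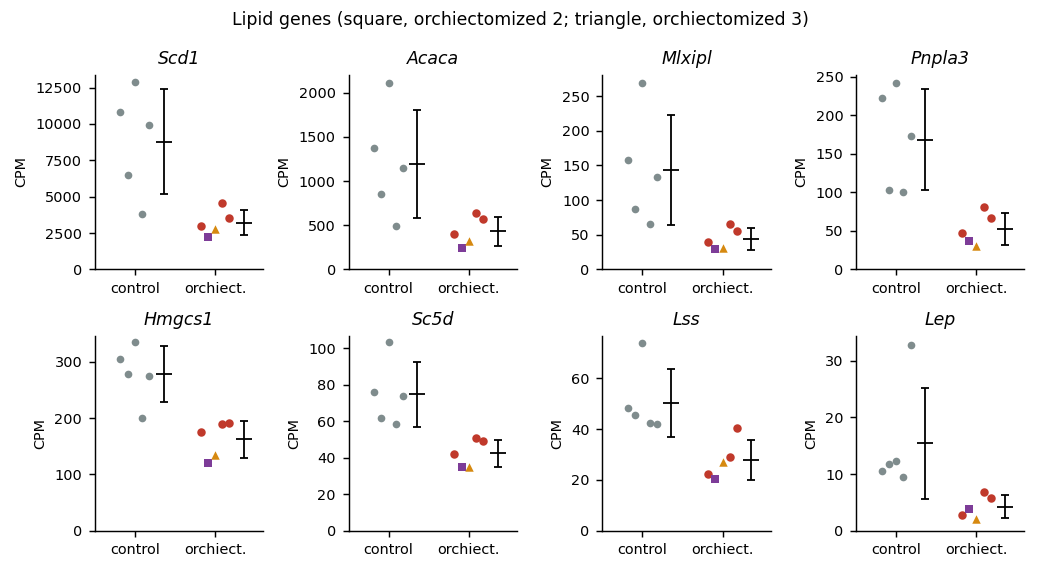
CPM of 8 lipid genes (panels, linear axes from 0) in the 5 control libraries (gray) and the 5 orchiectomized libraries (red, with a square for orchiectomized 2 and a triangle for orchiectomized 3), and beside each group its mean with an error bar of 1 SD. Scd1 goes from 8773 ± 3615 to 3212 ± 871 CPM and Hmgcs1 from 278 ± 50.003 to 162 ± 32.9 CPM, and orchiectomized 2 and 3 are the lowest of their group for Scd1, Acaca, Mlxipl, Pnpla3, Hmgcs1 and Sc5d.

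A few genes of DNA replication were higher. Mcm3 (chr1:20802966-20820312), a subunit of the replicative helicase, was at 8.97, 10.6, 12.2, 12.5 and 11.9 CPM in control mice and at 15.7, 16.9, 16.8, 15.5 and 15.9 CPM in orchiectomized mice. The difference was small, and the 5 orchiectomized libraries spread over only 15.5 to 16.9 CPM, all above the controls (log2 fold change 0.53, SE 0.10, adjusted *P* = 0.131, and without the pair 0.48, SE 0.11, adjusted *P* = 0.802, called). Hmgb2 (chr8:57511843-57515999), a chromatin protein of dividing cells and thymocytes, was at 9.78, 11.7, 7.82, 10.5 and 13.5 CPM and at 19.8, 41.1, 20.8, 18.3 and 17.6 CPM. Orchiectomized 2 stood far above the other 4, which themselves lay above every control (log2 fold change 1.14, SE 0.22, adjusted *P* = 0.131, and without the pair 0.79, SE 0.16, adjusted *P* = 0.619, called). Of 15 replication licensing genes 3 were higher (Mcm3, Mcm4 and Pcna) and none lower, with a median of 0.34, and without the pair Mcm3 alone was (median 0.28). Of all genes, 2.08% were higher with all libraries and 0.559% without the pair. Mcm4 lay without overlap at 11.3 to 19.2 and 20.1 to 24.1 CPM (log2 fold change 0.55, SE 0.16, adjusted *P* = 0.285, and without the pair 0.51, SE 0.19, adjusted *P* = 0.815, not called). The log2 fold change of Pcna was 0.35 with all libraries and 0.33 without the pair. The call of Mcm4 was lost without control 1 or 3 or orchiectomized 3 or 4, and that of Pcna without any of 7 of the 10 libraries. Of 15 mitosis genes 2 were higher, Kif11 (adjusted *P* = 0.288) and Top2a (adjusted *P* = 0.297), both highest in orchiectomized 3 and with calls lost without that library, control 1 or control 3 among others, and none without the pair (medians 0.58 and 0.33). Mki67, the common marker of proliferation, was not called, with 3.71, 10.4, 8.34, 9.42 and 11.3 CPM in control mice, control 1 being low, and 10.1, 17.5, 24.5, 13.3 and 10.3 CPM in orchiectomized mice (adjusted *P* = 0.342, and without the pair 0.839).

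The other genes with small *P* values in both fits did not share a list. Mthfd1l (chr10:3972892-4167081), the mitochondrial enzyme that makes formate from folate-bound carbon units, was at 4.35, 6.46, 4.90, 4.46 and 3.65 CPM in control mice and at 9.26, 10.0001, 6.82, 8.32 and 10.8 CPM in orchiectomized mice. Control 2 came nearest to the orchiectomized libraries without reaching them (log2 fold change 0.92, SE 0.18, adjusted *P* = 0.131, and without the pair 0.98, SE 0.19, adjusted *P* = 0.619, called). None of the 15 tested genes of serine synthesis, folate metabolism and ATF4 targets was called beside it (median -0.067, and without the pair -0.019). Bmp3, an antagonist among the bone morphogenetic proteins (chr5:98854415-98884053), was at 34.05, 28.1, 21.2, 29.3 and 23.9 CPM and at 40.9, 74.2, 50.1, 47.98 and 38.3 CPM, orchiectomized 2 being the highest (log2 fold change 0.88, SE 0.17, adjusted *P* = 0.131, and without the pair 0.62, SE 0.16, adjusted *P* = 0.802, called). Pik3ip1, a membrane inhibitor of PI3 kinase (chr11:3319241-3342971), was at 23.997, 19.2, 23.7, 29.6 and 22.7 CPM and at 46.5, 45.6, 44.2, 34.1 and 32.9 CPM (log2 fold change 0.77, SE 0.16, adjusted *P* = 0.176, and without the pair 0.65, SE 0.18, adjusted *P* = 0.815, called).

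Hephl1 (chr9:15051841-15112170), a copper-containing ferroxidase related to hephaestin, had the lowest log2 fold change of the 24 genes. It was at 21.1, 11.1, 25.8, 6.37 and 10.8 CPM in control mice and at 1.94, 0.796, 0.699, 2.68 and 2.85 CPM in orchiectomized mice, so that each orchiectomized library held less than the lowest control (log2 fold change -3.04, SE 0.53, adjusted *P* = 0.0960, and without the pair -2.58, SE 0.58, adjusted *P* = 0.682, called). It was the only called gene of 15 on the iron handling list (median -0.074), where Tfrc, the transferrin receptor, had a log2 fold change of -0.082 (adjusted *P* = 0.788). Lrrc39 (a leucine-rich repeat protein of striated muscle, chr3:116562954-116583144) was at 24.5, 20.04, 25.9, 16.4 and 23.3 CPM and at 12.8, 12.3, 12.1, 13.3 and 14.2 CPM, the orchiectomized libraries lying close together (log2 fold change -0.77, SE 0.14, adjusted *P* = 0.122, and without the pair -0.72, SE 0.17, adjusted *P* = 0.771, called). Slc22a3, a transporter of organic cations and monoamines (chr17:12419972-12507704), was at 41.02, 29.97, 39.4, 26.2 and 43.7 CPM and at 24.4, 20.0002, 22.6, 21.2 and 25.2 CPM, control 4 being the lowest control (log2 fold change -0.67, SE 0.14, adjusted *P* = 0.176, and without the pair -0.62, SE 0.17, adjusted *P* = 0.815, called).

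The remaining lower genes act in the nucleus or in ion transport. Dot1l, the methyltransferase of histone H3 lysine 79 (chr10:80755101-80795461), was at 53.7, 54.98, 57.4, 46.7 and 52.1 CPM in control mice and at 30.5, 31.9, 39.5, 43.2 and 35.1 CPM in orchiectomized mice (log2 fold change -0.55, SE 0.13, adjusted *P* = 0.239). Med24, a subunit of the Mediator complex (chr11:98704597-98729419), was at 57.7, 55.5, 61.2, 52.97 and 55.9 CPM and at 49.3, 45.1, 44.7, 46.9 and 47.1 CPM, a small difference between tight groups (log2 fold change -0.28, SE 0.064, adjusted *P* = 0.239). Ctcfl, a paralog of the insulator protein CTCF (chr2:173093609-173119525), was low, at 3.44, 3.47, 5.11, 2.69 and 3.29 CPM and at 0.969, 0.531, 1.84, 1.86 and 1.22 CPM (log2 fold change -1.47, SE 0.34, adjusted *P* = 0.241). Cnnm2, a transporter linked to magnesium balance (chr19:46756834-46878580), was at 47.9, 42.4, 59.2, 31.4 and 45.1 CPM and at 25.9, 20.97, 27.5, 29.4 and 24.5 CPM (log2 fold change -0.82, SE 0.19, adjusted *P* = 0.239). Without the pair the log2 fold changes of Dot1l, Med24, Ctcfl and Cnnm2 were -0.55, -0.26, -1.39 and -0.77.

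Of the genes of the aortic wall itself, Carmn was called lower and Mmp2 and Tgfb1 higher with all libraries, where 1.13% and 2.08% of all genes were, and none of the 3 without the pair. Of 18 contractile genes of smooth muscle 1 was lower and none higher (median -0.054, and without the pair no call and 0.057). The lower one was Carmn, the smooth muscle long noncoding RNA that works with myocardin, at 70.7, 78.1, 58.5, 86.3 and 35.9 CPM in control mice and at 47.7, 34.4, 40.999, 42.5 and 42.98 CPM in orchiectomized mice. Control 5 lay below most orchiectomized libraries (log2 fold change -0.66, SE 0.19, adjusted *P* = 0.280, and without the pair -0.58, SE 0.23, adjusted *P* = 0.815, not called), and the call was lost without control 2 or control 4. None of 17 elastic fiber genes, 18 collagen chains and 10 small leucine-rich proteoglycans was called in either fit, with medians of 0.11, -0.0032 and 0.020 (without the pair 0.20, 0.028 and 0.038). Eln (elastin) was at 2987 to 4453 CPM in control mice and 2365 to 4921 CPM in orchiectomized mice, Col1a1 at 1125 to 1651 and 984 to 1859 CPM, and Lox, the enzyme that cross-links both, at 225 to 454 and 118 to 341 CPM (adjusted *P* = 0.976, 0.899 and 0.621). For Eln, Col1a1 and Lox the lowest value was that of orchiectomized 2.

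Of 25 matrix proteases and inhibitors only Mmp2 (gelatinase A) was called. It was at 122, 115, 149, 155 and 137 CPM in control mice and at 179, 232, 207, 189 and 137 CPM in orchiectomized mice, with orchiectomized 2 and 3 the highest and orchiectomized 5 inside the control range (log2 fold change 0.47, SE 0.15, adjusted *P* = 0.297, and without the pair 0.30, SE 0.16, adjusted *P* = 0.815, not called), and the call was kept only when control 4 or orchiectomized 5 was the library left out. Mmp9 (gelatinase B) was at 4.17 to 30.9 and 8.83 to 22.4 CPM (adjusted *P* = 0.905) and Mmp12, the macrophage elastase, at 0.521 to 1.84 and 1.37 to 3.01 CPM (adjusted *P* = 0.415). Tgfb1 was the only called gene of 15 in TGF-beta signaling, at 54.5, 62.2, 51.6, 54.5 and 50.2 CPM and at 78.6, 73.2, 64.4, 61.6 and 62.02 CPM (log2 fold change 0.31, SE 0.093, adjusted *P* = 0.285, and without the pair 0.29, SE 0.11, adjusted *P* = 0.815, not called), and it was lost without control 3, control 5, orchiectomized 1 or orchiectomized 2. None of 12 endothelial and 9 adventitial fibroblast markers was called in either fit (medians 0.14 and 0.17, and without the pair 0.041 and -0.010). Nos3, the endothelial nitric oxide synthase, had the smallest *P* of the endothelial list with 45.5, 50.01, 60.8, 56.4 and 63.6 CPM in control mice and 42.4, 41.6, 42.8, 52.04 and 43.5 CPM in orchiectomized mice (log2 fold change -0.31, SE 0.13, adjusted *P* = 0.375, and without the pair -0.27, SE 0.16, adjusted *P* = 0.815, not called).

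The steroid receptor genes described here did not separate the groups. Nr3c2, the mineralocorticoid receptor to which aldosterone binds, was at 22.9, 24.8, 20.2, 30.4 and 23.4 CPM in control mice and at 23.4, 23.2, 33.9, 24.95 and 23.1 CPM in orchiectomized mice, with orchiectomized 3 above the rest (log2 fold change 0.078, SE 0.15, adjusted *P* = 0.866). Esr1, Pgr and Nr3c1, the receptors of estrogen, progesterone and glucocorticoids, had log2 fold changes of 0.23, -0.16 and -0.013 (adjusted *P* = 0.643, 0.858 and 0.983), and Esr2 had at most 1 count in a library. The intervals of these receptors were wide, with standard errors of 0.15 to 0.29 on the log2 scale.

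Among 14 tested corticosteroid target genes 3 were higher (Per1, Scnn1a and Tsc22d3) and 1 lower, and without the pair 1 was higher (Per1) and 1 lower (medians 0.056 and 0.080). The lower gene was Hsd11b1, which regenerates active glucocorticoid within cells. It was at 86.8, 57.5, 91.9, 67.4 and 101 CPM in control mice and at 38.6, 66.02, 32.7, 49.98 and 33.6 CPM in orchiectomized mice, with orchiectomized 2 inside the control range and the other 4 below it (log2 fold change -0.87, SE 0.22, adjusted *P* = 0.244, and without the pair -0.995, SE 0.22, adjusted *P* = 0.682, called). Tsc22d3 (GILZ) was at 33.6, 29.1, 35.8, 38.95 and 43.2 CPM and at 38.0001, 87.9, 42.4, 56.3 and 60.1 CPM (log2 fold change 0.66, SE 0.22, adjusted *P* = 0.308, and without the pair 0.50, SE 0.21, adjusted *P* = 0.815, not called), and 7 of the 10 libraries could each end its call. Scnn1a, the alpha subunit of the epithelial sodium channel, was at 96.9 CPM in orchiectomized 2, the library with lung transcripts, and at 0.921 to 2.35 CPM in control mice and 1.40 to 1.75 CPM in the other orchiectomized mice (adjusted *P* = 0.285, and without the pair 0.970), its call being lost without orchiectomized 2 or control 2, 3, 4 or 5. Its partners Scnn1b and Scnn1g had 269 and 343 counts in orchiectomized 2 and at most 6 in any other of the 10 libraries. Sgk1, the kinase that aldosterone induces, was at 72.7, 66.6, 73.6, 66.1 and 61.97 CPM and at 69.003, 78.1, 65.7, 102 and 100.2 CPM, orchiectomized 4 and 5 being the highest (log2 fold change 0.28, SE 0.15, adjusted *P* = 0.449, and without the pair 0.40, SE 0.16, adjusted *P* = 0.815, not called). None of 7 tested genes of the renin-angiotensin system was called (median 0.16, and without the pair 0.091).

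The PCR panel held 16 transcripts, of which 10 could be tested, and the calls were Arntl lower and Scnn1a and Mmp2 higher, of which Arntl alone passed without the pair. The 6 that could not, together with Pdcd1 and Esr2, were compared by permutation, and none of these 8 genes had an exact *P* below 0.05 with all libraries. Il1b had the smallest, with 2 to 7 counts in control libraries and 4 to 28 in orchiectomized libraries (difference in mean log2(CPM + 0.5) 0.65, exact two-sided permutation *P* = 0.0794, and without the pair 0.32 with exact *P* = 0.321).

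Genes of tissues attached to the aorta varied between mice. Genes of fast skeletal muscle such as Myh4, Atp2a1 and Mylpf were high in control 1 and control 4. Orchiectomized 2 had the highest sum of the list (898 CPM), of which Mb (myoglobin, also made in heart) gave 685 CPM and Ckm 110.4 CPM. Of 13 tested 3 were lower after orchiectomy (Atp2a1, Mylpf and Myh4, median -2.27), and the 3 calls were each lost without control 1 or control 4 and without orchiectomized 1, 3 or 4, that of Myh4 also without orchiectomized 5. Without the pair only Ckm, a creatine kinase, was called (median -2.42). Myh4, the fast myosin, was at 165, 4.31, 20.5, 108 and 2.92 CPM in control mice and at 0.215, 6.90, 0.437, 0.962 and 3.26 CPM in orchiectomized mice (log2 fold change -4.66, SE 1.48, adjusted *P* = 0.297, and without the pair -5.32, SE 1.97, adjusted *P* = 0.815, not called). Of 9 mesothelial genes 2 keratins were higher through orchiectomized 2, where Krt8 was at 278 CPM against 1.97 to 5.66 CPM in control mice, and the call of Krt8 was lost without orchiectomized 2 or control 1, 2 or 3. Without the pair neither passed (Krt8, log2 fold change -0.062, adjusted *P* = 0.978), and Msln and Upk3b, which define mesothelium, did not pass with all libraries (adjusted *P* = 0.472 and 0.734).

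Of 8 tested Schwann cell genes, Cnp alone was called (median 0.85, and without the pair 0.65). Cnp, a phosphodiesterase of myelinating cells, was at 29.4, 32.6, 38.3, 28.6 and 29.9 CPM in control mice and at 45.1, 106, 46.2, 55.7 and 42.9 CPM in orchiectomized mice without overlap (log2 fold change 0.90, SE 0.25, adjusted *P* = 0.262, and without the pair 0.59, SE 0.20, adjusted *P* = 0.815, not called). Genes of sympathetic neurons spread widely within both groups, with Th (tyrosine hydroxylase) at 7.15, 2.72, 71.8, 4.89 and 19.4 CPM and at 58.6, 15.1, 30.2, 1.79 and 61.3 CPM, and none of 10 was called (median 0.70). Star was the only tested gene of the adrenal cortex list (adjusted *P* = 0.693), and Cyp11b2, the aldosterone synthase, was listed at 0 in all 10 libraries. Of the erythroid genes, Alas2 and Slc4a1 were tested and not called (adjusted *P* = 0.980 and 0.448), and the hemoglobin genes Hba-a1, Hba-a2, Hbb-bs and Hbb-bt were listed at 0 in all libraries.

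The broad metabolic and stress lists gave no call in either fit. Of 72 tested genes of oxidative phosphorylation none was called, and 62 had a negative log2 fold change (median -0.18, and without the pair -0.080). Their summed level was 26378, 15827, 27422, 11169 and 23329 CPM in control mice and 20030.4, 19452, 10425, 18348 and 16806 CPM in orchiectomized mice, lowest in control 4 and orchiectomized 3. Of 74 cytosolic ribosomal proteins none was called, and 73 had a positive log2 fold change (median 0.25, and without the pair 0.23), with summed levels of 22558, 21769.8, 25233, 21128 and 20332 CPM and 32294, 32489, 19239, 21304 and 24514 CPM. Orchiectomized 1 and 2 stood above the other 8 libraries. None of 22 chaperones and 17 immediate early genes was called (medians 0.054 and 0.31), and the smallest *P* of the latter was that of Nr4a1, at 292 CPM in orchiectomized 2 and 44.7 to 74.3 CPM in control mice (adjusted *P* = 0.371).

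The levels in the orchiectomized mice given DHT are set beside these without a test. Dbp was at 25.1 to 44.6 CPM with DHT and Arntl at 32.6 to 41.4 CPM, both overlapping the orchiectomized mice without DHT and neither the control mice. S100a9 was at 0.901 to 5.998 CPM and Ngp at 0.128 to 1.20 CPM. Mcm3 and Hmgb2 were at 9.31 to 10.3 and 8.48 to 11.7 CPM, in the range of the control mice. Hephl1 was at 5.86 to 27.5 CPM, Scd1 at 3774 to 10645 CPM and Slc22a3 at 32.3 to 44.04 CPM, each reaching into the control range.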

How the data were processed

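RNA-Seq counts of 10 aortas (5 control and 5 orchiectomized mice, all on Aldo-salt) were compared, grouped by their labels. The authors deposited raw counts per gene symbol, without normalization. The submitters' processing notes name STAR, Cufflinks, DESeq2 and mm10 without roles or versions. The counting program, its strand setting and the annotation were not given in the sources used here, so reads of overlapping or antisense genes cannot be told apart, and near-identical copies are uncertain. The 2 entries for reads in no gene (6.26% to 10.4%) or in several genes (1.34% to 1.95%) were left out.

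Tests were run with edgeR 4.0.16 in R 4.3.3, using filterByExpr (minimum count 10, minimum total count 15), TMM and the quasi-likelihood test with all 3 groups of 15 libraries in 1 model. Calls used an unadjusted *P* of 0.01, the threshold of the study's methods, and Benjamini-Hochberg adjustment over all genes tested. The comparison was repeated without orchiectomized 2 and 3. The alternatives were the replicate number in the model, other filters and scaling, DESeq2 1.42.0, limma 3.58.1 with voom, a robust fit, the 10 libraries alone and leaving out each library. The scripts were tested on simulated data. Genes under the filter were compared on log2(CPM + 0.5) by exact permutation. CPM values use library sizes scaled by TMM.

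The comparison and the 45 gene lists were chosen with earlier results of these data known. Named genes are the 12 of smallest *P* per direction that passed in both fits (predicted genes, Riken clones and mitochondrial genes aside), up to 6 called members and at least 2 of each list, all members of the PCR, steroid receptor and clock lists, Pdcd1 and Cd274. Other genes named were chosen after their values were seen. Some members of these lists are not reported here. Promoter windows are from RefSeq, GRCm38.p6, matched by symbol and searched on both strands.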

Additional observations from a re-analysis of the deposited data

Results flagged for a closer look

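Within each group of 5, the library farthest out was set against the others for every gene and list described, and its gap to the nearest other library exceeded 0.71 of the whole range in 52 of 414 groups (12.6%). Many of these genes were named by their *P* in the same libraries, and genes and lists overlap. The share is therefore not set against one expected by chance. Of these, 33 were values of orchiectomized 2, 6 of orchiectomized 3 and 13 of other libraries. Values are in CPM, with the range of the other 4 libraries of the group after each.

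In orchiectomized 2 the lung genes far above the rest were Scgb1a1 (2329 against 2.69 to 23.7), Napsa (99.6 against 2.26 to 6.60), Ager (463 against 0.326 to 1.24) and Foxj1 (166 against 0.756 to 0.977). Genes of epithelia in general were Krt8 (278 against 2.58 to 6.99), Krt18 (190.3 against 10.04 to 20.5), Scnn1a (96.9 against 1.40 to 1.75), Scnn1b (23.8 against 0 to 0.108) and Scnn1g (30.4 against 0.137 to 0.646). Immune genes were H2-DMa (58.7 against 13.3 to 19.9), Cd74 (1060.2 against 266 to 451), H2-Ab1 (497 against 125 to 179), H2-Eb1 (487 against 117 to 192), Ltf (1116 against 1.87 to 4.20), Chil3 (51.2 against 0.894 to 1.79), Ly6c2 (13.9 against 1.40 to 4.74) and Ccl22 (8.50 against 0.262 to 2.27). Wall and nerve genes were Des (859 against 154 to 235), Mmp11 (21.7 against 14.99 to 16.7), Cnp (106 against 42.9 to 55.7), Prx (91.8 against 33.7 to 49.2) and Tgfb2 (44.9 against 101 to 121), with Tgfb2 below the others. The remaining genes were Hmgb2 (41.1 against 17.6 to 20.8), Nr4a1 (292 against 60.6 to 114), Egr2 (13.1 against 3.83 to 4.81) and Esr2 (0.0885 against 0 to 0), the value of Esr2 being 1 count. The summed lists were small leucine-rich proteoglycans (3854 against 6409 to 7244), endothelial cells (1861 against 1162 to 1362), mesothelium (851 against 71.8 to 113), MHC class II presentation (2767 against 689 to 1142), neutrophils (1276 against 34.3 to 55.9), lung epithelium (7852 against 9.12 to 45.2) and skeletal muscle (898 against 21.7 to 129), with the proteoglycans below the others.

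In orchiectomized 3 the genes were Col16a1 (102 against 65.05 to 74.5), Cd8a (16.4 against 0.538 to 4.67), Rag1 (53.5 against 0.754 to 3.37) and Nr3c2 (33.9 against 23.1 to 24.95), the list was thymocytes (149 against 8.40 to 26.2), and the share of reads in no gene was 10.4% against 6.26% to 7.44% in the other 4. In orchiectomized 4 they were Per3 (31.1 against 18.5 to 20.98) and Nos3 (52.04 against 41.6 to 43.5).

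Among the control libraries, control 2 stood apart in Nfil3 (94.03 against 47.6 to 55.8) and Il6 (1.03 against 0 to 0.212) and in the summed list of clock activators (520.4 against 365 to 398). Control 3 did so in Lss (73.9 against 41.8 to 48.1) and in the summed list of sympathetic neurons (471 against 25.1 to 145), and control 5 in Lep (32.9 against 9.56 to 12.3). In control 4 the values were Cd8a (1.42 against 0.365 to 0.634), Rag1 (1.63 against 0 to 0.0913) and Cxcl13 (43.8 against 3.08 to 8.86) and the summed list of lymph node (45.5 against 4.17 to 13.2). In control 1 the summed list of mitosis (26.8 against 49.01 to 54.9) lay below the others.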

How the results depend on the processing

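Of the counts of genes at an unadjusted *P* of 0.01 (294 higher, 160 lower), those that moved by over 1.5 times are given with their setting. Without orchiectomized 2 and 3 the counts were 80 and 69, and with the 10 control and orchiectomized libraries alone 140 were higher. The replicate block gave 180 higher and 105 lower, with 2 genes (Tef and Dbp) at an adjusted *P* of 0.05. Same-numbered libraries correlated at -0.288 to 0.167, and no control library correlated best with the orchiectomized library of its own number. This gave no sign that the numbers pair the mice, but so few libraries cannot exclude it. All genes with at least 1 count gave 498 and 254, and at least 10 counts in every library gave 168 higher. DESeq2 gave 316 lower, and 74 higher and 57 lower at the adjusted threshold, where limma voom with quality weights gave 1 higher. Chosen after seeing the data, DESeq2 without the pair gave 122 higher, with 9 higher and 5 lower at the adjusted threshold, and limma voom without the pair gave 300 lower, with 1 higher at the adjusted threshold. Leaving out each library in turn gave 120 to 396 higher and 78 to 446 lower genes, 0 to 1 higher at the adjusted threshold (Cd5 without orchiectomized 1), and 0 to 2 of the 8 genes under the count filter with an exact permutation *P* below 0.05. Krt8 reversed to -0.062 without the pair with edgeR and to -0.058 with DESeq2, and Ager to -0.46 with limma voom without the pair. RLE size factors left 254 and 197, and the robust fit 295 and 160. The causes were not tested.

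The 24 genes with the smallest *P*, chosen for passing with and without the pair, kept their direction and a *P* below 0.01 in every other alternative in which they were tested, and 5 of them were not tested with at least 10 counts in every library. Of the 90 called genes that the naming rules hold, 50 were called whichever library was left out, and 42 without the pair. Genes with fewer than 10 counts in most libraries, such as Pdcd1 and Il6, are measured with less precision. The unit is 1 aorta, so *P* values measure the spread between these mice, and all mice received Aldo-salt. The labels give no hour of harvest, with which clock genes vary, and its part was not tested. Fat, lung, thymus, muscle and nerve differed between libraries, and their part in the results was not tested.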
